A study of Mus musculus with 24 samples.

Results

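Wfs1, Fibcd1, Mpped1, Pou3f1, Man1a, Dcn and Neurod6, which mark pyramidal neurons of hippocampal field CA1, were followed through RNA-seq and ribosome profiling of mouse hippocampal slices. These 7 genes were chosen by symbol as a measure of CA1 content. All 7 were found among the 23845 genes of the RNA table and the 20436 genes of the table of ribosome-protected fragments (RPFs), and all 7 passed the filter on low counts in both. Germline Tsc2+/- mice, made per the study's methods by crossing CMV-Cre with Tsc2flox mice and breeding on C57BL/6J, were compared with WT littermates. Males aged 28 to 42 days were used, and the study's methods give a narrower range of ages within this one. Slices of several mice were pooled per lysate, after vehicle (artificial cerebrospinal fluid) or 100 µM of DHPG, which activates mGluR1/5, for 5 min. All slices were given cycloheximide at 100 µg/ml, which halts ribosomes, and CA3 had been cut off. The slices are called CA1 enriched by the study, whose methods also describe dissecting out CA1 after the incubation. Each of 12 lysates gave 1 RNA and 1 RPF library, with 3 lysates in each of the 4 groups (WT vehicle, WT DHPG, Tsc2+/- vehicle, Tsc2+/- DHPG). The study calls these biological replicates. Each replicate number held all 4 groups. It was taken to stand for a batch, which the labels do not state. Matching of libraries by number was not established, so counts over same-numbered pairs are a description.

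CA1 pyramidal neurons are the excitatory output cells of the hippocampal circuit, where stimulation of group I metabotropic glutamate receptors produces long-term depression of synapses. They carry genes that are low or absent in the neighbouring dentate gyrus, and within CA1 some of these genes differ between the dorsal and the ventral pole. In bulk tissue a lower level of such a gene may come from fewer CA1 cells or from less RNA per cell, and these cannot be told apart here. The 7 genes have different roles. Wfs1 encodes wolframin, a membrane protein of the endoplasmic reticulum that is mutated in Wolfram syndrome, and Fibcd1 a transmembrane receptor with a fibrinogen domain. Both are known as markers of dorsal CA1. Mpped1 encodes a metallophosphoesterase-domain protein. Pou3f1 (a POU-homeodomain protein) and Neurod6 (a basic helix-loop-helix protein of excitatory forebrain neurons) are transcription factors. Man1a encodes a Golgi mannosidase that trims N-glycans. Dcn encodes decorin, a small proteoglycan of the extracellular matrix that marks ventral CA1 and is also made by fibroblasts.

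The positions of the members follow RefSeq on GRCm38.p6 (mm10). They were chr5:36966104-36988982 for Wfs1, chr2:31813290-31846964 for Fibcd1, chr15:83779472-83858487 for Mpped1, chr4:124657646-124660655 for Pou3f1, chr10:53904785-54076616 for Man1a, chr10:97479500-97518163 for Dcn and chr6:55677818-55681263 for Neurod6. Wfs1, Fibcd1, Man1a and Neurod6 lie on the minus strand, the others on the plus strand. Pou3f1 has 1 exon and the others 2 to 13. RNA reads had been counted over whole transcripts (1887 bases for Dcn to 5078 for Man1a), but RPFs over coding sequences with 30 bases left out at each end. The following 30 bases, from RefSeq on GRCm38.p6, are the stretch at the start of the coding sequence that the RPF counts leave out, shown for 5 of the members, with the start codon in capitals. They lie at chr5:36982263-36982292 for Wfs1, chr2:31845753-31845782 for Fibcd1, chr15:83792035-83792064 for Mpped1, chr4:124657707-124657736 for Pou3f1 and chr6:55679621-55679650 for Neurod6.
Wfs1: ATGaactcaggcaccccacctccgagcccc
Fibcd1: ATGgtccacgagcggtggaagaccgtgggc
Mpped1: ATGtggcgccctaggtgggatcctggcatc
Pou3f1: ATGgccaccaccgcgcagtatctgccgcgg
Neurod6: ATGttaacactaccgtttgacgagtctgtc
Neurod6 opens with 43.3% G or C in this window, and the other 4 with 63.3% to 70.0%. Over whole coding sequences the GC content was 47.5% in Dcn, 47.8% in Neurod6, 52.5% in Man1a, 57.6% in Mpped1, 58.7% in Wfs1, 62.8% in Fibcd1 and 72.8% in Pou3f1, against a median of 51.9% over 21000 genes. Pou3f1 was richer in G and C than 99.8% of these genes.

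All 7 genes were detected in all 24 libraries. RNA libraries held 14801679 to 24067838 counts and RPF libraries 5296006 to 13613673. In the RPF libraries of replicates 2 and 3, 97.9% to 98.5% of the non-zero counts were even, against 48.2% to 49.0% in replicate 1, and the cause was not tested. Per length, as RPKM (reads scaled by library size and by length in kilobases), RNA in WT vehicle was highest for Mpped1 at 173 ± 4.91 (SD, n = 3), then Fibcd1 at 132 ± 10.6 and Wfs1 at 88.1 ± 9.93. Neurod6 at 43.7 ± 6.55 and Pou3f1 at 42.4 ± 2.39 differed by less than the sum of their SDs, as did Dcn at 29.8 ± 4.94 and Man1a at 25.9 ± 3.10. Among 11995 genes with a length, the 7 members exceeded 78.7% (Man1a) to 97.8% (Mpped1). The 9 markers of dentate granule cells, by contrast, lay at 0.283 to 6.85 RPKM, so that every CA1 member was above every dentate marker. Of 7 fibroblast and meninges markers, Lum was at 0.472 RPKM and Col1a1 at 1.16, and the highest, Igf2, at 18.7, where Dcn was at 29.8. The defining genes of CA1 were thus present in every library.

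The order of the members was different in RPFs. Dcn was then the highest per length, at 212 RPKM ± 26.8 (SD, n = 3) in WT vehicle, followed by Fibcd1 at 190.4 ± 26.7, Wfs1 at 152 ± 30.3, Mpped1 at 145 ± 6.81, Neurod6 at 124 ± 11.6, Man1a at 117 ± 5.16 and Pou3f1 at 48.9 ± 10.3. Neighbours in this order, other than Mpped1 with Neurod6 and Man1a with Pou3f1, differed by less than the sum of their SDs. Translational efficiency (TE) is the level of RPFs divided by that of RNA, here per length and on the log2 scale. It ran from -0.26 ± 0.0770 for Mpped1 through 0.19 ± 0.344 for Pou3f1, 0.52 ± 0.258 for Fibcd1, 0.78 ± 0.196 for Wfs1, 1.51 ± 0.162 for Neurod6 and 2.19 ± 0.191 for Man1a to 2.84 ± 0.137 for Dcn, beside a median of 1.14 over all 11995 genes. Thus Mpped1, with the most RNA of the 7, was at the low end of TE, above only 11.8% of genes, and Dcn, with RNA that did not stand clear of Man1a, at the high end, above 94.7%. The SDs of Pou3f1 and Fibcd1, and of Fibcd1 and Wfs1, overlapped, whereas Mpped1, Neurod6, Man1a and Dcn each stood clear of their neighbours in the order.

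**Figure D1:**
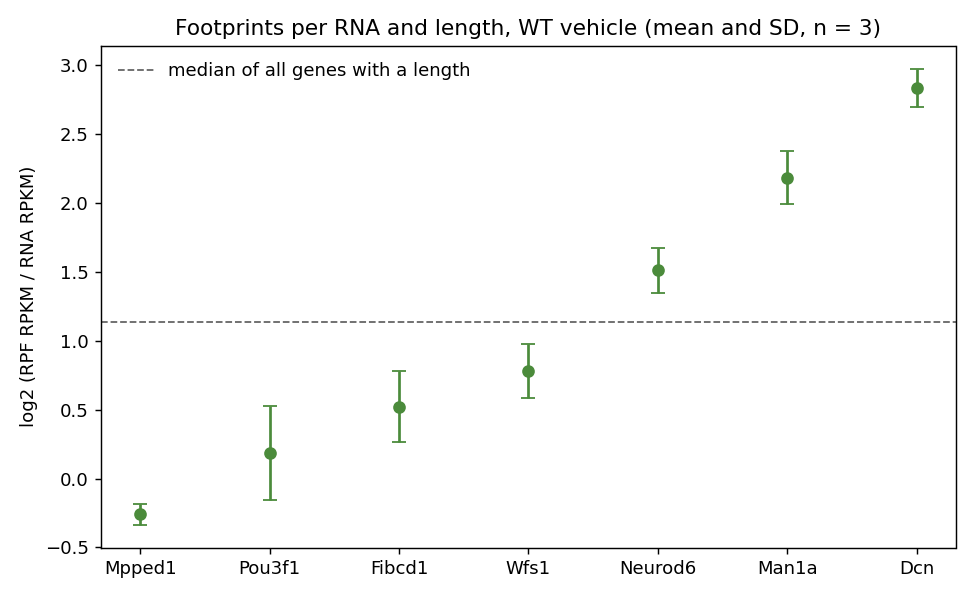
Footprints per RNA and length of the 7 CA1 genes in WT vehicle, as log2 of RPF RPKM over RNA RPKM (points, mean; bars, SD over 3 lysates), with the median of all 11995 genes as a dashed line. Mpped1, Pou3f1, Fibcd1 and Wfs1 lie below the line at 1.14 and Neurod6, Man1a and Dcn above it.

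The levels of the members by library are given as CPM, which are counts divided by a TMM-scaled library size, in the order of replicates 1, 2 and 3. Wfs1 RNA was at 320.3, 276 and 346 CPM with vehicle and 347, 309 and 373 with DHPG in WT slices, and at 387, 286 and 366 with vehicle and 261, 302 and 363 with DHPG in Tsc2+/- slices. The lowest and the highest Wfs1 libraries were thus both Tsc2+/- libraries of replicate 1, and all 4 groups overlapped. Wfs1 RPFs were at 469.9, 313 and 412 CPM with vehicle and 392, 347 and 378 with DHPG in WT slices, and at 478, 294 and 393 with vehicle and 326, 307 and 375 with DHPG in Tsc2+/- slices. Replicate 2 was the lowest of its group in 4 of 4 groups.

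Dcn RNA was at 47.2, 65.8 and 55.4 CPM with vehicle and 52.7, 67.8 and 59.0 with DHPG in WT slices, and at 43.0, 70.9 and 62.5 with vehicle and 72.2, 78.3 and 55.8 with DHPG in Tsc2+/- slices. Replicate 2 was here the highest in 4 of 4 groups. Dcn RPFs were at 199.8, 244 and 195 CPM with vehicle and 215, 265 and 233 with DHPG in WT slices, and at 174, 274 and 201.5 with vehicle and 295.5, 284 and 218 with DHPG in Tsc2+/- slices. Dcn was thus lowest in the Tsc2+/- vehicle library of replicate 1 and, among RPFs, highest in the Tsc2+/- DHPG library of the same replicate, the reverse of Wfs1 RNA.

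Fibcd1 RNA was at 609, 684.5 and 589 CPM with vehicle and 626, 635 and 612 with DHPG in WT slices, and at 653, 653 and 641 with vehicle and 684, 663 and 653.5 with DHPG in Tsc2+/- slices. Its RPFs were at 292, 229.6 and 232 CPM with vehicle and 244.5, 226 and 215 with DHPG in WT slices, and at 251, 222.5 and 215 with vehicle and 268, 249 and 219.7 with DHPG in Tsc2+/- slices. Fibcd1 RPFs were highest in replicate 1 in 4 of 4 groups, and Fibcd1 RNA was lowest in replicate 3 in 4 of 4. Neurod6 RNA was at 109, 92.6 and 80.9 CPM with vehicle and 99.9, 86.0 and 70.8 with DHPG in WT slices, and at 123, 83.7 and 96.8 with vehicle and 94.8, 84.3 and 93.4 with DHPG in Tsc2+/- slices, with replicate 1 the highest in 4 of 4. Man1a RPFs were at 223, 214 and 234 CPM in WT vehicle and 239, 255 and 244 in Tsc2+/- vehicle, which did not overlap, and at 221, 246.5 and 210.5 in WT DHPG and 248, 238.5 and 235 in Tsc2+/- DHPG, which did.

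Mpped1 and Pou3f1 varied least between groups. Mpped1 RNA had group means of 569 to 595 CPM and RPF means of 129.7 to 133, and Pou3f1 RNA had means of 126 to 129 and RPF means of 60.2 to 63.0. Man1a RNA had means of 128 to 137 CPM, and Neurod6 RPFs of 118 to 131. The biological coefficient of variation of RNA, from the fit with replicate number as a term, was 4.58% for Mpped1, 4.66% for Fibcd1 and 5.33% for Man1a, below the common value of 7.01%, and reached 8.38% for Wfs1 and 10.6% for Dcn. In RPFs the same 3 genes were lowest (5.39% to 5.61%), and Wfs1 and Dcn again highest, at 8.98% and 9.68%. Among libraries of a group, without that term, the coefficient of variation of RNA was 12.6% to 24.3% for Dcn, 6.26% to 19.6% for Neurod6 and 9.37% to 16.5% for Wfs1. In RPFs it was 9.04% to 25.1% for Pou3f1, which was above Wfs1 (6.14% to 23.6%) in 4 of 4 groups, and 10.6% to 23.9% for Dcn.

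Footprints per RNA were given for each lysate as the log2 ratio of RPF CPM to RNA CPM, without length, so that each gene is compared only with itself across groups. For Wfs1 this ratio was 0.33 ± 0.196 (SD, n = 3) with vehicle and 0.12 ± 0.0891 with DHPG in WT, and 0.15 ± 0.137 and 0.13 ± 0.165 in Tsc2+/-. WT slices with vehicle thus had the highest mean, and the lowest of their 3 lysates, at 0.18, was above all 3 WT lysates with DHPG, the highest of which was at 0.17. For Fibcd1 the WT vehicle group was again the highest, at -1.325 ± 0.258, against -1.45 ± 0.0833 with DHPG in WT and -1.50 ± 0.107 and -1.445 ± 0.114 in Tsc2+/-, and all 4 groups overlapped. Pou3f1 had the narrowest span of group means, from -1.07 to -1.03. Mpped1 had means of -2.17 to -2.09, and with vehicle its 3 WT lysates, at -2.14 to -2.003, all lay above its 3 Tsc2+/- lysates, at -2.18 to -2.16. Man1a had means of 0.77 to 0.85, Neurod6 of 0.34 to 0.51 and Dcn of 1.88 to 1.99. The tests of these differences are given with each comparison.

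**Figure D2:**
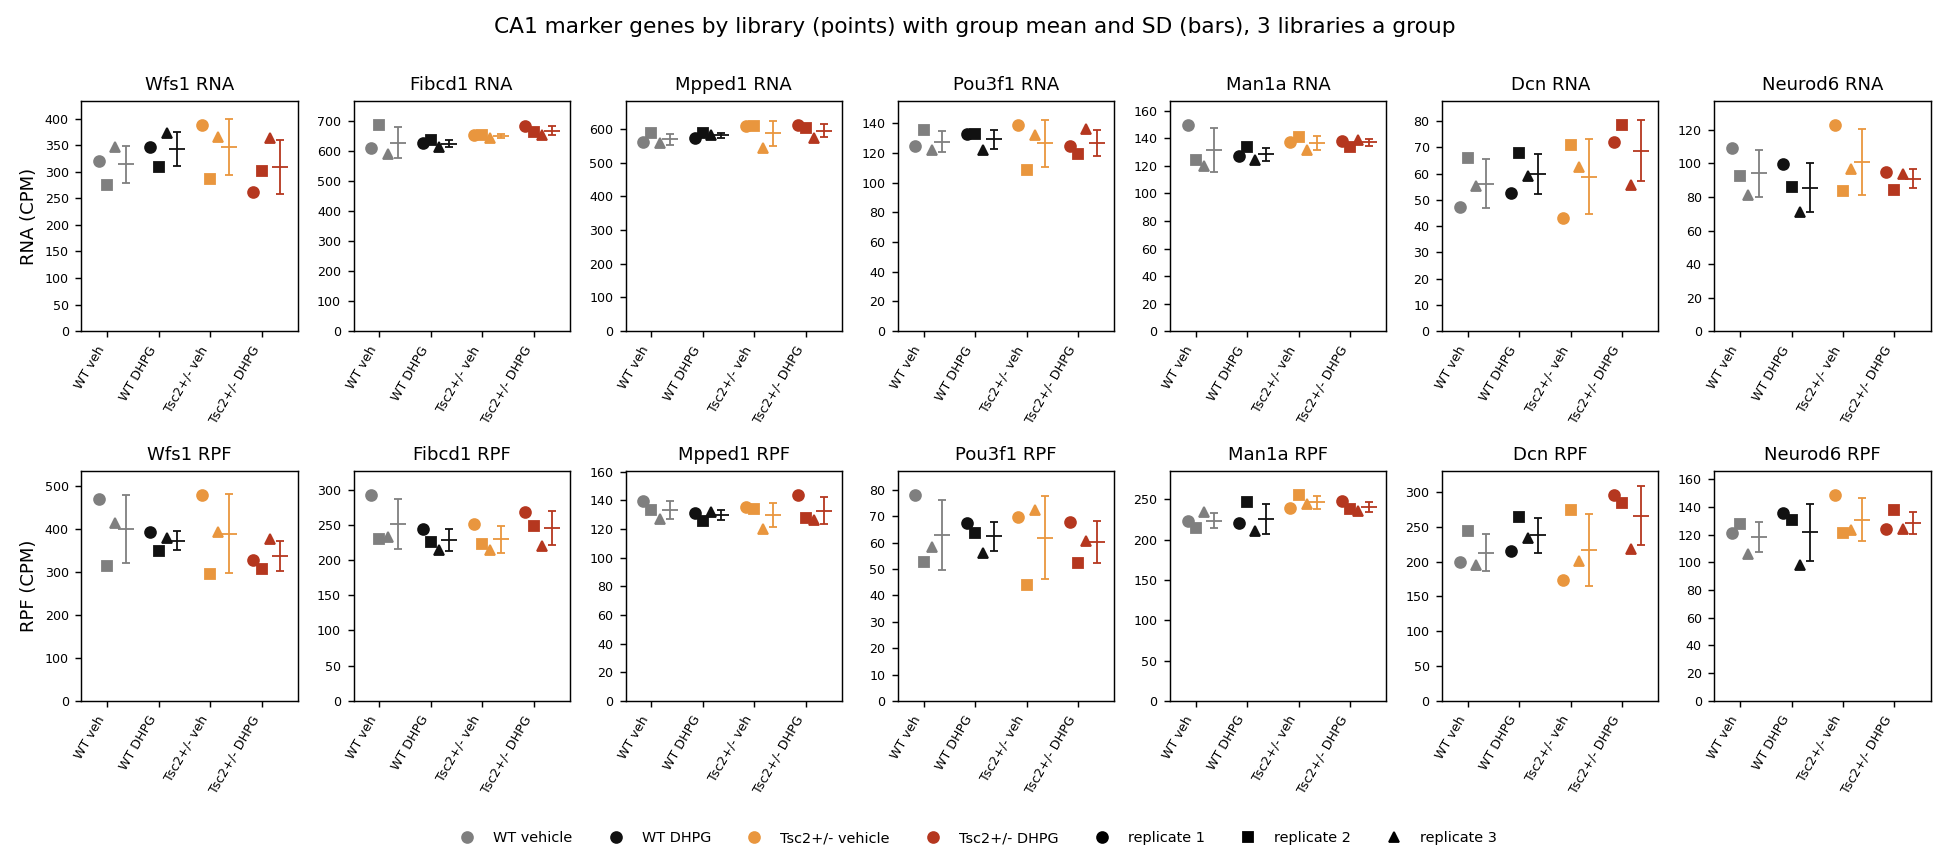
Level in CPM of each of the 7 CA1 genes (columns) in RNA (upper row) and RPFs (lower row) by group, with points for single libraries (shape, replicate number) and bars for the group mean and SD over 3 libraries. Dcn RNA is highest in replicate 2 in each of the 4 groups, and Fibcd1 and Mpped1 RNA differ little between groups.

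To ask whether CA1 content differed between genotypes, Tsc2+/- was compared with WT. In vehicle, 0 of 7 members were called in RNA at an adjusted p under 0.1 by the edgeR quasi-likelihood test, where 0.0896% of the 14516 genes tested were called. The median log2 fold change of the members was 0.06, and their range -0.02 (Pou3f1) to 0.14 (Wfs1), beside a median of -0.002 over all genes. The 95% confidence intervals reached at most 0.284 to either side of the estimate, and for Mpped1 0.0962. In RPFs 0 of 7 were called, against 0.0233% of 12877 genes, with a median of -0.03 and a range of -0.13 (Fibcd1) to 0.15 (Neurod6). In TE 0 of 7 were called, against 0% of 12785 genes, with a median of -0.05. At an unadjusted p under 0.05 there were 0 members in RNA, 2 in RPFs and 1 in TE, and the number over all genes was 711 of 14516, 843 of 12877 and 737 of 12785. DESeq2 also called 0 members, in this and in all other comparisons of the 3 measures, but gave Pou3f1, Man1a, Dcn and Neurod6 no adjusted p for DHPG averaged over genotypes in RNA.

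The members with the smallest p in this comparison were Man1a and Fibcd1. Man1a RPFs had a log2 fold change of 0.14 (95% interval 0.009 to 0.27, adjusted p 0.736 by edgeR), higher in Tsc2+/- in 3 of 3 same-numbered pairs. Fibcd1 RPFs had one of -0.13 (-0.25 to -0.005, adjusted p 0.748), lower in 3 of 3, while its RNA was at 0.05 (-0.047 to 0.148). The TE of Fibcd1 accordingly had a log2 difference of -0.18 (-0.33 to -0.02, adjusted p 0.863), lower in 2 of 3. The TE of Mpped1, whose lysates did not overlap, was at -0.08 (-0.23 to 0.08, adjusted p 0.921), lower in 3 of 3. Averaged over both treatments, Fibcd1 RNA had 0.07 (0.004 to 0.142, adjusted p 0.796), higher in 5 of 6 pairs, and Man1a RPFs 0.12 (0.02 to 0.21, adjusted p 0.659), higher in 5 of 6. None of these passed the threshold. In vehicle, Fibcd1 RPFs were at -0.075 and Mpped1 TE at -0.04 without replicate 1, Fibcd1 TE at -0.10 without it, and Man1a RPFs at 0.08 without replicate 2.

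In DHPG, 0 of 7 members were again called between Tsc2+/- and WT in RNA (0.0482% of all genes called), RPFs (0.0155%) and TE (0%). The RNA of the members had a median log2 fold change of 0.10 in this comparison, with Wfs1 at -0.15 (95% interval -0.37 to 0.07) and Dcn at 0.21 (-0.08 to 0.49) at its ends, which became -0.04 and 0.07 without replicate 1. Fibcd1 and Man1a RNA did not overlap between genotypes in DHPG, each at 0.095 (intervals -0.003 to 0.193 and -0.03 to 0.22). The share of all genes without overlap was not counted in this or any other comparison, so that no weight is put on it. Averaged over treatments, 0 of 7 members were called in RNA (0.227% of all genes), in RPFs (0.0621%) and in TE (0%). At an unadjusted p under 0.05 there were 0 members in DHPG in any measure, and 1 in RNA, 1 in RPFs and 0 in TE in the averaged comparison. Over all genes the numbers were 674 of 14516 in RNA, 532 of 12877 in RPFs and 388 of 12785 in TE in DHPG, and 888, 854 and 575 averaged, so that the members lay near the background. The averaged median of the members was 0.07 in RNA, -0.002 in RPFs and -0.04 in TE.

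To ask whether 5 min of DHPG moved the CA1 genes, DHPG was compared with vehicle. In WT, 0 of 7 members were called in RNA (0% of all genes), in RPFs (0.0311%) and in TE (0.0548%). In Tsc2+/- slices 0 of 7 were called in RNA, RPFs and TE (0% of all genes in each). Averaged over genotypes, 0 of 7 were called in RNA (0.0207%), RPFs (0.0311%) and TE (0.0469%). At an unadjusted p under 0.05 there was 1 member in RPFs in each of the 3 comparisons, 1 in RNA in the averaged one, and 0 otherwise. Over all genes there were 864 (WT), 519 (Tsc2+/-) and 878 (averaged) of 12877 in RPFs, and 936, 627 and 1087 of 14516 in RNA and 1158, 467 and 1087 of 12785 in TE in the same order. The median log2 fold change of the members in this averaged comparison was 0.009 in RNA, -0.008 in RPFs and -0.03 in TE, beside -0.001, -0.002 and -0.002 over all genes.

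Dcn in RPFs and Neurod6 in RNA had the smallest p of the members for DHPG averaged over genotypes. Dcn RPFs had a log2 fold change of 0.24 averaged over genotypes (95% interval 0.06 to 0.42, adjusted p 0.599 by edgeR), higher in 6 of 6 same-numbered pairs, and Dcn RNA had 0.17 (-0.03 to 0.37, adjusted p 0.709), higher in 5 of 6. Without replicate 1 these were 0.13 and 0.03. In Tsc2+/- slices Dcn RPFs had 0.32 (0.07 to 0.57, unadjusted p 0.0176 and adjusted p 1 by edgeR), and this became 0.08 without replicate 1. Dcn TE was at 0.07 (-0.25 to 0.39). Neurod6 showed another combination, with RNA at -0.14 averaged over genotypes (-0.27 to -0.01, adjusted p 0.626), lower in 5 of 6 pairs, RPFs at 0.005 (-0.11 to 0.12) and TE at 0.14 (-0.05 to 0.33, adjusted p 0.695), higher in 6 of 6. Fibcd1 RPFs had -0.13 in WT (-0.26 to -0.01, adjusted p 0.723), lower in 3 of 3 pairs. Wfs1 TE in WT, where the lysates did not overlap, was at -0.215 (-0.575 to 0.145, adjusted p 0.740), lower in 3 of 3. Fibcd1 RNA in Tsc2+/- slices did not overlap between treatments either, at 0.04 (-0.06 to 0.14), higher in 3 of 3. Without replicate 1, Neurod6 RNA was at -0.09, Fibcd1 RPFs in WT at -0.07 and Wfs1 TE in WT at -0.12. None of these passed the threshold over all genes.

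The difference between genotypes in the response to DHPG was tested as the interaction of the 2 factors. Of the members 0 of 7 were called in RNA, RPFs and TE (0% of all genes in each). Fibcd1 RPFs had an interaction of 0.23 on the log2 scale (95% interval 0.06 to 0.40, unadjusted p 0.0111 and adjusted p 0.998 by edgeR), the only member under an unadjusted p of 0.05 in the 3 measures, where 503 of 14516 genes in RNA, 490 of 12877 in RPFs and 519 of 12785 in TE were. Its RPFs were lower after DHPG in 3 of 3 WT pairs and higher in 3 of 3 Tsc2+/- pairs. Wfs1 RNA had -0.29 (-0.60 to 0.013, adjusted p 0.999), which became -0.11 without replicate 1.

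**Figure D3:**
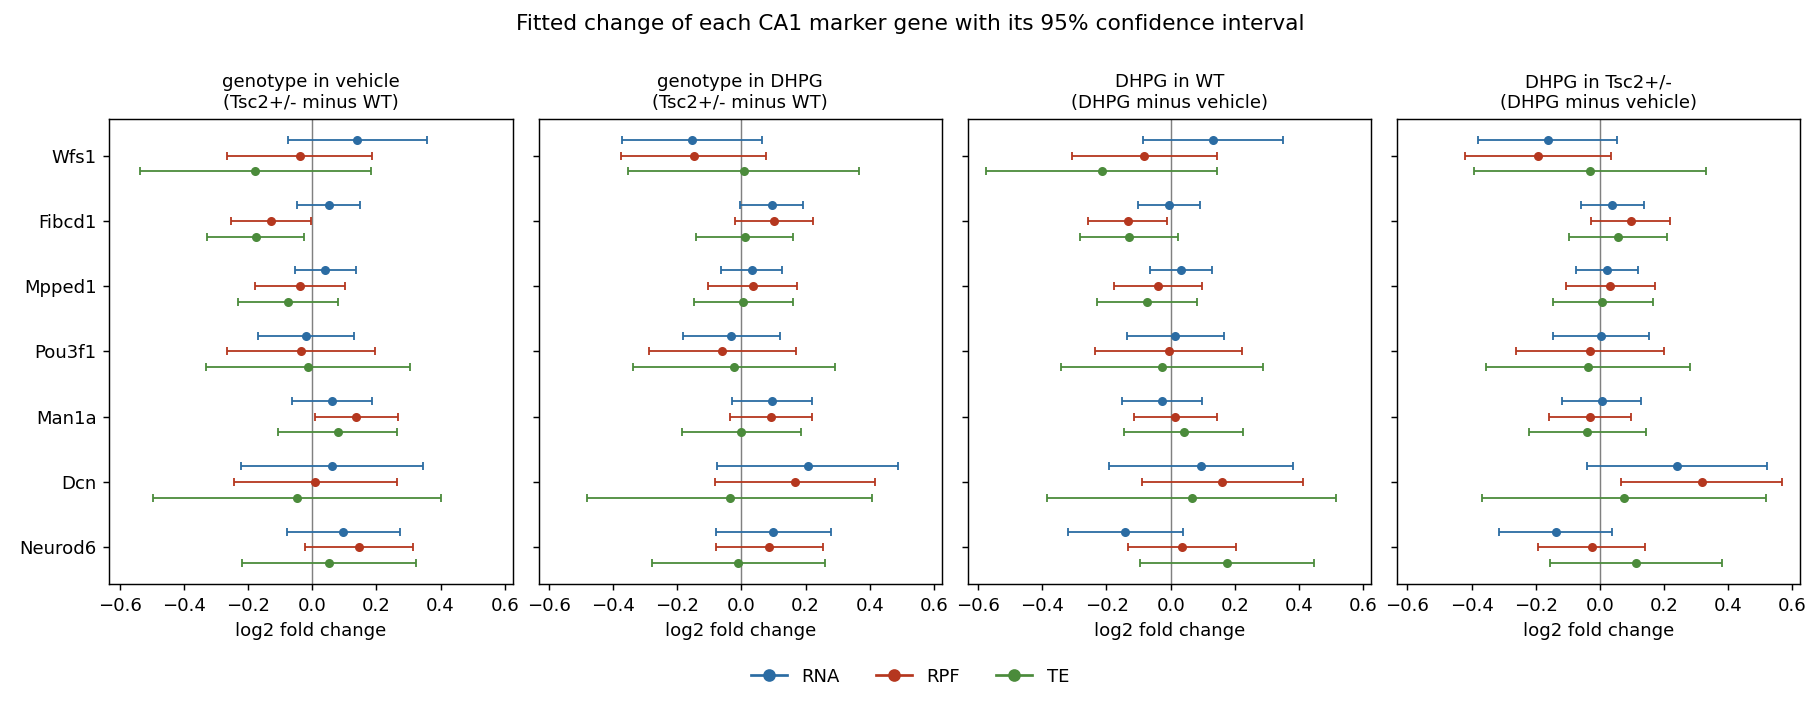
Fitted log2 fold change (points) with its 95% confidence interval (bars) of each CA1 gene in RNA, RPFs and TE, in the 4 comparisons of genotype and of DHPG. In the panel of DHPG in Tsc2+/- slices the interval of Dcn RPFs, 0.07 to 0.57, excludes 0, but 0 of 7 members passed the threshold over all genes in any panel.

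The 7 genes did not vary together between libraries. Of their 21 pairs, 11 had a positive Pearson r over the 12 RNA libraries and 13 over the 12 RPF libraries, with medians of 0.15 and 0.07. These values are a description, since libraries of 1 replicate number may share their handling. Wfs1 and Dcn, a marker of dorsal and one of ventral CA1, formed the most negative pair of the 21, with r = -0.69 in RNA and r = -0.90 in RPFs (Spearman's rho -0.70 and -0.92, n = 12). Being the extreme of 21, the pair was not tested. The ratio of Wfs1 to Dcn, as a log2 difference in CPM, ran from 1.86 (Tsc2+/- DHPG, replicate 1) to 3.17 (Tsc2+/- vehicle, replicate 1) in RNA and from 0.11 (Tsc2+/- vehicle, replicate 2) to 1.46 (Tsc2+/- vehicle, replicate 1) in RPFs.

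Before centring, the relation was negative in both assays in each subset of libraries. Once replicate 1 was left out and the rest were centred, it was positive in RNA and stayed negative in RPFs. Replicate 2 had the lowest mean of Wfs1 and the highest of Dcn, at 293 and 70.7 CPM in RNA and at 315 and 267 in RPFs. After centring within replicate number, r was -0.72 in RNA and -0.88 in RPFs, and rho -0.12 and -0.73. Without replicate 1, r was -0.72 in RNA and -0.895 in RPFs (n = 8), and without the 2 Tsc2+/- libraries of replicate 1 it was -0.53 and -0.89 (n = 10). With replicate 1 left out and the others centred, r was 0.49 in RNA and -0.50 in RPFs (n = 8). Each replicate number held only 4 libraries, too few for a value of its own. The summed level of the 7 markers of fibroblasts and meninges, cells that also make decorin, was 74.7 to 119.7 CPM over RNA libraries, and its r with Dcn was -0.25 in RNA and -0.14 in RPFs. Without replicate 1 it was 0.45 and 0.62, and its part in the level of Dcn was not tested.

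**Figure D4:**
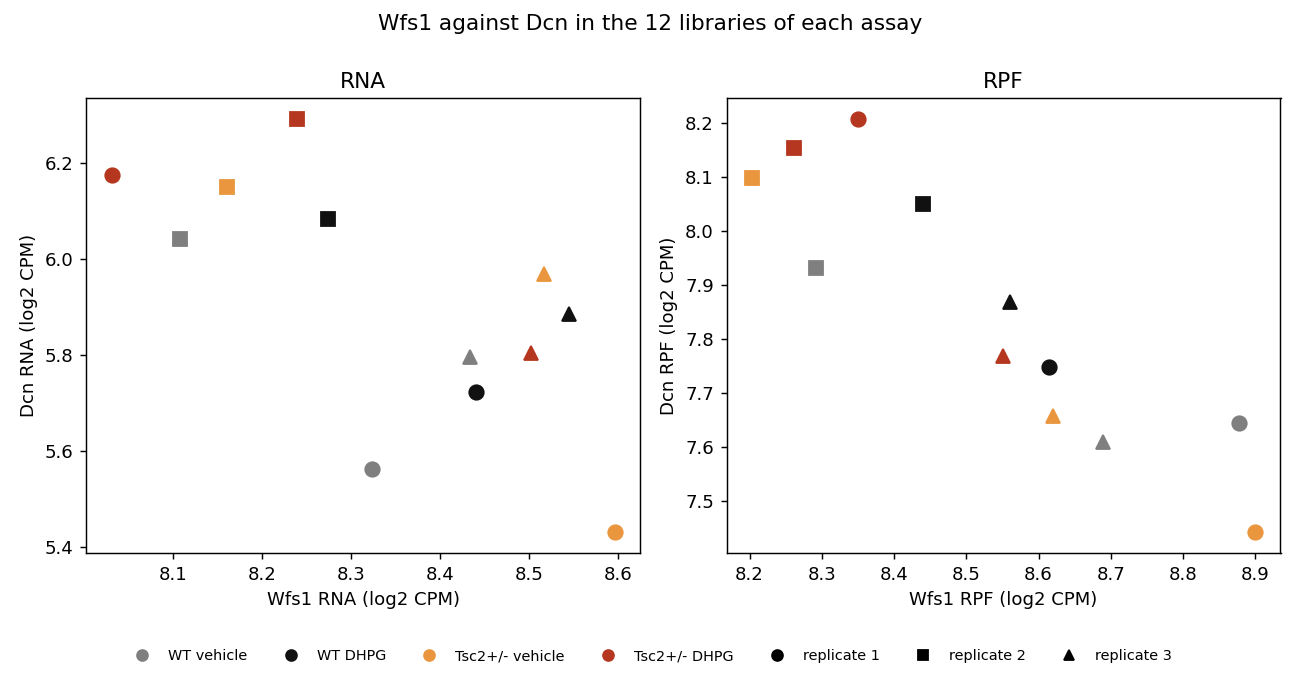
Level of Dcn against that of Wfs1 (log2 CPM) in the 12 RNA and the 12 RPF libraries, colored by group, with the replicate number as shape. Libraries of replicate 2 lie at the upper left in both assays, and the Tsc2+/- libraries of replicate 1 at opposite ends.

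Since 1 lysate gave both libraries, RNA and RPFs of a member were compared over the 12 lysates, centred within replicate number, with an exact permutation test (two-sided) that exchanged lysates only within a replicate number. Of the members 0 of 7 were called after adjustment over 12785 genes, as were 0% of all genes. The r of 6 of 7 members was above that of 89.1% to 99.9% of genes, whose median was 0.02, and that of Fibcd1 above 25.5%. Pearson's r was 0.91 for Dcn (rho 0.82, exact p 0.00637 for each, adjusted p 0.614 and 0.734), and 0.78 for Neurod6 (rho 0.69, exact p 0.0373 and 0.0700, adjusted p 0.802 and 0.907). It was 0.71 for Wfs1, 0.58 for Pou3f1, 0.53 for Mpped1, 0.47 for Man1a and -0.23 for Fibcd1, with exact p of 0.130 to 0.556 (adjusted p 0.870 to 0.956). Spearman's rho of these was 0.34, 0.73, 0.54, 0.48 and -0.09, with exact p of 0.404, 0.0221, 0.131, 0.155 and 0.814 (adjusted p 0.817 to 1). Without the 2 lysates farthest from the median RNA level, r was 0.575 for Dcn, 0.58 for Neurod6, 0.61 for Mpped1, 0.62 for Man1a, 0.45 for Pou3f1, -0.22 for Fibcd1 and -0.12 for Wfs1, whose relation therefore rests on the 2 Tsc2+/- lysates of replicate 1. Of all genes 777 had an unadjusted p under 0.05, and the smallest p these permutations can give is 7.23e-05.

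As a measure of CA1 content, the mean log2 CPM of the 7 genes was taken. It ranged from 7.54 to 7.68 over the 12 RNA libraries, with group means of 7.59 ± 0.0459 (SD, n = 3) with vehicle and 7.60 ± 0.0386 with DHPG in WT, and of 7.65 ± 0.0416 and 7.65 ± 0.00586 in Tsc2+/-. In RPFs the group means were 7.43 ± 0.103, 7.43 ± 0.0737, 7.44 ± 0.0785 and 7.46 ± 0.0697 in the same order. Each single member spanned more in RNA than the mean of the 7, from Mpped1 at 9.08 to 9.25 log2 CPM up to Dcn at 5.43 to 6.29. Opposite changes of members can cancel in the mean. The mean of 6 further CA1-enriched genes and that of 6 genes of pyramidal or excitatory neurons had ranges of 0.123 and 0.149 in RNA. In RPFs these ranges were 0.18 and 0.461. The members had 0.148 in RNA and 0.21 in RPFs. When the genotypes were compared over both treatments, 0 of 6 were called in each list in RNA (0.227% of all genes) and in RPFs (0.0621%). Among the 12041 genes with a mean RNA count of at least 50, those closest to the members' mean z score over the 12 RNA libraries were Rasgef1a (r = 0.93), Zfp365 (0.91), Cyr61 (0.89), Camk2a (0.88), a subunit of a protein kinase of excitatory synapses, and Gpc6 (0.88). Their r in RPFs was 0.41, -0.27, 0.625, 0.55 and 0.0976, with Zfp365 and Gpc6 the lowest of these genes. Being the extreme of 12041 genes over 12 libraries, these 5 were not tested.

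The dentate granule cell list varied more between libraries than the CA1 genes. Over the 12 RNA libraries its mean log2 CPM had a range of 1.32, and that of the CA1 genes one of 0.148. The dentate genes were low, however, with a median of 7.05 CPM in RNA against 133 for the CA1 genes. Other lists of low genes had ranges from 0.25 (CA3) to 1.05 (CA2). The part of low counts in the dentate range was not tested. The difference of the means, CA1 minus dentate, was 5.27 ± 0.357 (SD, n = 3) with vehicle and 5.23 ± 0.138 with DHPG in WT, and 5.63 ± 0.270 with vehicle and 5.996 ± 0.231 with DHPG in Tsc2+/-. In the last group the lowest library, at 5.80, was above every WT library. In RPFs it was 4.945 ± 0.512, 4.97 ± 0.0966, 5.15 ± 0.146 and 5.80 ± 0.202. Of 9 dentate genes 1 was called lower in Tsc2+/- RNA averaged over treatments, Prox1 (log2 fold change -0.41, adjusted p 0.0161 by edgeR). Of 4 CA2 genes 1 was called higher, Cacng5 (0.39, adjusted p 0.0255), and both were named after their values were seen. Over all genes 0.227% were called in this comparison. In RPFs 0 of 9 and 0 of 4 were called, against 0.0621% of all genes. Of the 9 dentate genes 0 had a positive log2 fold change in RNA (median -0.41) and 2 in RPFs (median -0.66). Of the 4 CA2 genes 4 were positive in RNA (median 0.27) and 4 in RPFs (median 0.29). The median over all genes was -0.001 in RNA and -0.002 in RPFs. The lean of these 2 lists was not tested. No other gene of the 14 lists was called in RNA or RPFs in the 7 comparisons. The part of dentate tissue in the levels of the CA1 members was not tested.

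**Figure D5:**
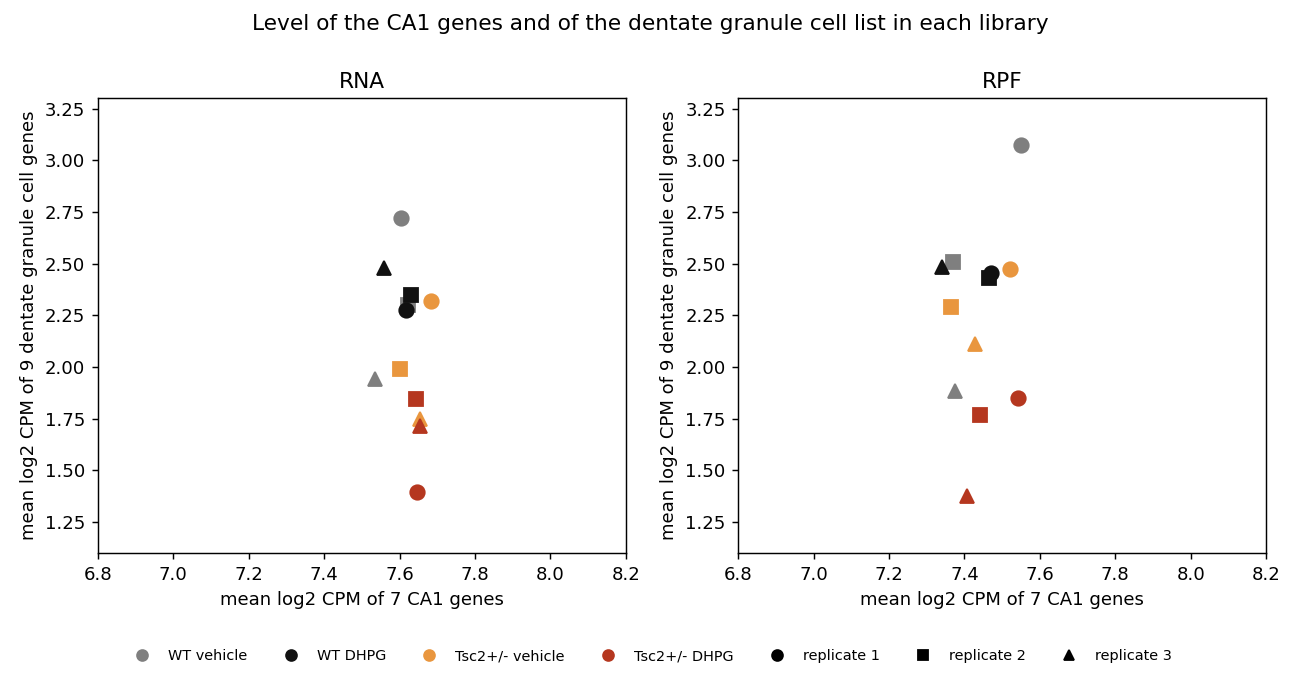
Mean log2 CPM of 9 dentate granule cell genes against that of the 7 CA1 genes, in each RNA and RPF library, on axes of different span. The CA1 mean stays between 7.54 and 7.68 in RNA while the dentate mean falls as low as 1.40 in a Tsc2+/- DHPG library.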

How the data were processed

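Per the study's methods and labels, the authors removed adapters and reads of rRNA and tRNA, mapped the rest to mm10 with TopHat2, kept unique reads and removed duplicates by molecular identifiers. Expected counts from RSEM were deposited, and they were rounded for the fits here. Of their columns 0 lacked a sample. Genes were kept with filterByExpr (minimum count 10), scaled by TMM and tested over all 12 libraries of an assay with the quasi-likelihood F test (two-sided) of edgeR 4.0.16 in R 4.3.3, in a model of group plus replicate number. TE was the interaction of assay and group over 24 libraries. Benjamini-Hochberg adjustment ran over all genes of a comparison, with a threshold of 0.1, also for RNA against RPFs, where the members alone had been planned. Log2 CPM used a prior count of 2, and RPKM the RefSeq lengths. Named genes were the 7 members and the 5 genes closest to their mean z score in RNA; Prox1, Cacng5, Lum, Col1a1 and Igf2 of the marker lists are named outside this rule, after their values were seen. The members and the 14 marker lists were chosen with earlier results of these data known. The fits were tested on simulated counts of genotypes in vehicle: genes with a log2 change of 0.25 were called in 46.2% of cases in RNA (14318 genes), 25.0% in RPFs (12791) and 11.2% in TE (12678), and those with 0.5 in 93.8%, 96.2% and 71.2%. In each measure 80 genes were given a change of 0.25, 80 one of 0.5 and 40 one of 1. The same comparison of the real counts called 13 genes in RNA, 3 in RPFs and 0 in TE. The rate of calls with fewer changed genes, or at the spread of each member, was not tested. Alternatives included DESeq2 1.42.0, ComBat in sva 3.50.0, and leaving out libraries. The study's methods correct for batch, and replicate numbers were taken as batches, a match that the labels do not state. The coding starts of Man1a and Dcn are not reported here.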

Additional observations from a re-analysis of the deposited data

Results flagged for a closer look

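For Wfs1 RNA the genotypes differed in opposite directions in the 2 treatments: Tsc2+/- was above WT in 3 of 3 same-numbered pairs in vehicle (by 0.27, 0.05 and 0.08 on the log2 scale) and below it in 3 of 3 in DHPG (by -0.41, -0.03 and -0.04). The interaction was -0.294 (95% interval -0.60 to 0.013, adjusted p 0.999 by edgeR), and the larger part came from replicate 1.

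For Fibcd1 RPFs every WT pair was lower after DHPG (-0.26, -0.02 and -0.11) and every Tsc2+/- pair higher (0.10, 0.16 and 0.03). Seen the other way, Tsc2+/- was below WT in vehicle (-0.22, -0.05 and -0.11) and above it in DHPG (0.13, 0.14 and 0.03). The interaction was 0.23 (95% interval 0.06 to 0.40, adjusted p 0.998 by edgeR), 0.17 without replicate 1 (0.165). Both patterns were looked for among 7 members and 3 measures, and neither passed the test of the difference over all genes.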

How the results depend on the processing

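The count of members called, 0 in each of the 21 comparisons and in the comparison of RNA with RPFs, stayed at 0 in all 394 alternatives run. These included fits with no replicate block, DESeq2, ComBat, RLE scaling, other filters, halved RPF counts, and each replicate number or library left out. ComBat, no filter on low counts and single libraries left out were run for RNA and RPFs only. Each TE comparison had 10 alternatives, and that of RNA with RPFs was repeated only without centring. The smallest adjusted p of a member over these alternatives was 0.238 (Man1a RPFs, genotype averaged over treatments; 0.238 to 1). Of 2751 values of members under alternatives, 240 had the other sign and 0 passed the threshold. Same-numbered libraries deviated from their group means with correlations of 0.0228 to 0.143 in RNA and 0.0330 to 0.263 in RPFs. Libraries of different numbers had -0.126 to 0.024 in RNA and -0.194 to 0.0667 in RPFs, ranges that overlapped the same-numbered ones only at their ends. The same-numbered values were not all over 0.1, so that the pairing by number was taken as not established. With no replicate block, Dcn RPFs after DHPG had 0.23 averaged over genotypes (adjusted p 0.995) and Man1a RPFs in vehicle 0.14 (adjusted p 0.989). Dcn RPFs after DHPG in Tsc2+/- slices had 0.08 without replicate 1 and 0.45 without replicate 2.

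Over all genes the counts of calls depended more on the setting, from 0 to 112. In RNA of genotypes in vehicle they were 6 to 31 (13 as reported), in DHPG 4 to 17 (7) and averaged 16 to 63 (33), and after DHPG 0 to 112 in WT (0), 0 to 2 in Tsc2+/- (0) and 0 to 44 averaged (3), where 112 and 44 came without WT vehicle replicate 2. In RPFs they were 2 to 13 (3), 2 to 47 (2) and 3 to 69 (8) for genotype, where 47 and 69 came without replicate 3, and 1 to 37 (4), 0 to 7 (0) and 0 to 25 (4) for DHPG. In TE they reached 99 for DHPG in WT (7) and 44 averaged (6), both by DESeq2, and 10 for genotype averaged (0). With 3 libraries a group, most changes of 0.25 on the log2 scale were not called in the simulated counts. For genes of larger spread than was simulated, such as Dcn at 10.6% in RNA, larger changes may also be missed.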
